A study of Mus musculus with 9 samples.

Results

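The genes described here encode the enzymes that make polyamines, nucleotides and one-carbon units in sorted mouse cells. A list of 34 genes was drawn up by name, with earlier results of these data known. A gene was measured if at least 1 probe set of the array carried its symbol and no other. This held for 31 of the 34 genes, out of 18193 genes measured in all. The 3 probe sets of Sms, the spermine synthase gene, also carry the symbol of a pseudogene, and Amd1 and Impdh2 matched no probe set under a symbol of their own, so these 3 genes were not analysed here. The 31 genes had 71 probe sets, and each gene was read from the probe set with the highest mean over the 9 arrays. Dim genes were left out below the 40th percentile of an array's values. All 31 genes exceeded that level on every array, so none passed the filter through 1 group alone.

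The series concerns T-ALL, a leukemia of T cell precursors, and the non-malignant effects of too much NOTCH1, the receptor whose signal commits precursors to the T lineage. Its 9 Affymetrix arrays fall into Control, Abnormal non-malignant and NIC Tumor samples, with 3 arrays each. No genotype, strain, age, sorted population or promoter is labelled for any of them, and NIC is not spelled out. Whether each sample is a different animal is not stated either, so p-values reflect the spread among these samples alone. All values are log2 probe set values, on which a difference of 1 is a 2-fold change.

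Dividing cells need nucleotides for DNA and RNA and polyamines to stabilize both. Purines are built on a ribose phosphate (PRPP) in a chain of reactions that ends in IMP, from which AMP and GMP branch off, and pyrimidines are built as a ring that is then joined to PRPP. Serine feeds the folate cycle, which carries the one-carbon units that purine and thymidine synthesis consume. Many of these genes are known as targets of the transcription factor MYC, and T-lineage leukemias are treated with drugs against purine and folate metabolism.

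Some arrays were unlike their group. Between non-malignant arrays 2 and 3 the gene-wise log2 differences had an SD of 0.16 and 0 genes reached 2-fold, whereas the next closest pair (controls 1 and 3) gave 0.3 and 121. Control 2 had the lowest control value in 22 of the 31 genes, and tumor 1 the lowest tumor value in 23. The shares of all genes with these patterns were not counted. T lineage markers had a mean log2 level of 11.62 to 11.67 in controls, 11.92 to 12.08 in non-malignant samples and 10.34 to 11.39 in tumors. On the non-malignant arrays their median lay only −0.06 to 0.04 from the control mean, and 5 of 9 had a positive difference. The largest were those of Ptcra (3.27, not passed) and Cd2 (1.42, called higher). All 9 T lineage markers with a probe set of their own lay above the 40th percentile on all arrays. Of these 9, 4 fell in tumors against controls, where 7.19% of all genes did. The mean level of the myeloid markers was 5.67 to 5.97, 6.63 to 6.65 and 5.85 to 7.3 in the same order of groups. That of the erythroid markers was 5.79 to 5.96, 6.27 to 6.47 and 6.23 to 7.74, tumor 2 being the highest array for both. The mean levels of the B cell and stromal lists lay between 5.62 and 6.42, but single markers differed. Cd22 of the B cell list read 8.34 to 9.1 in non-malignant samples and was called higher there against controls. In tumors against controls Cd79b of the same list was called lower and Pdgfrb of the stromal list higher. Of the erythroid list the hemoglobin gene Hba-a1 stayed under the 40th percentile on all arrays, and of the myeloid list Itgam on all but 1 tumor. Others of these lists lay higher. Slc4a1 read 5.39 to 5.85 in controls and 9.18 on tumor 2, and S100a8 read 4.76 to 6.07 in controls and 8 to 8.03 in non-malignant samples. The 3′ minus 5′ signal of Gapdh ran from −0.16 to −0.05 in tumors, from −0.11 to 0.75 in non-malignant samples and from −0.09 to 0.44 in controls. The part of these cells and of RNA quality in the results was not tested, and in sorted bulk samples fewer cells of a type and less RNA per cell cannot be told apart.

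The tumors carried more RNA of these enzymes than the controls. Of the 31 genes, 17 rose in tumors against controls and 0 fell (limma with Benjamini-Hochberg adjustment over 13296 genes). Of all genes tested 8.48% rose and 7.19% fell (15.7% in either direction). The unadjusted p of the same fit was under 0.05 for 25 of the 31 genes and for 4280 of the 13296. The largest rises were those of Srm (5.85-fold), Cad (5.2-fold), Shmt2 (3.9-fold) and Gart (3.27-fold). The median log2 difference of the 31 genes was 0.97, against 0.06 over all genes tested. In 25 of the 31 genes every tumor array lay above every control array, a pattern that 18.2% of all genes showed. The list was chosen with earlier results of these data known, so counts set against all genes, here and below, are descriptions only. The count of genes that rose was 15 with non-malignant arrays 2 and 3 averaged and ran from 13 without control 2 to 23 without tumor 1.

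In the non-malignant samples 1 gene, Atic, rose against controls and 0 fell, where 2.87% of all genes rose and 0.654% fell (3.53% in either direction). The unadjusted p of the fit was under 0.05 for 11 of the 31 genes and for 1766 of the 13296 genes tested. The median log2 difference was 0.32, against 0.01 over all genes. All 3 non-malignant arrays lay above all 3 controls in 17 of the 31 genes, compared with 17% of all genes, and below them in Odc1 and Impdh1, compared with 9.15%. Without tumor 1 or tumor 3, whose values enter the shared spread, 4 and 2 genes rose, and with only these 2 groups in the fit 5 did. Without any 1 control or non-malignant array, or with non-malignant arrays 2 and 3 averaged, 0 did.

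Between tumors and non-malignant samples 7 genes were higher in the tumors and 1, Prps2, was lower, where 1.53% and 2.7% of all genes were (4.23% in either direction). The unadjusted p of the fit was under 0.05 for 17 of the 31 genes and for 3444 of the 13296 genes tested. The median log2 difference was 0.5, against 0.03 over all genes. All 8 calls ended with non-malignant arrays 2 and 3 averaged, and without any 1 non-malignant array. The genes higher numbered 0 without control 1, tumor 2 or tumor 3, 1 without control 3, 4 without control 2 and 15 without tumor 1. The comparisons share arrays pairwise: the first 2 share the controls, and this one takes its tumors from the first and its non-malignant samples from the second.

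**Figure D1:**
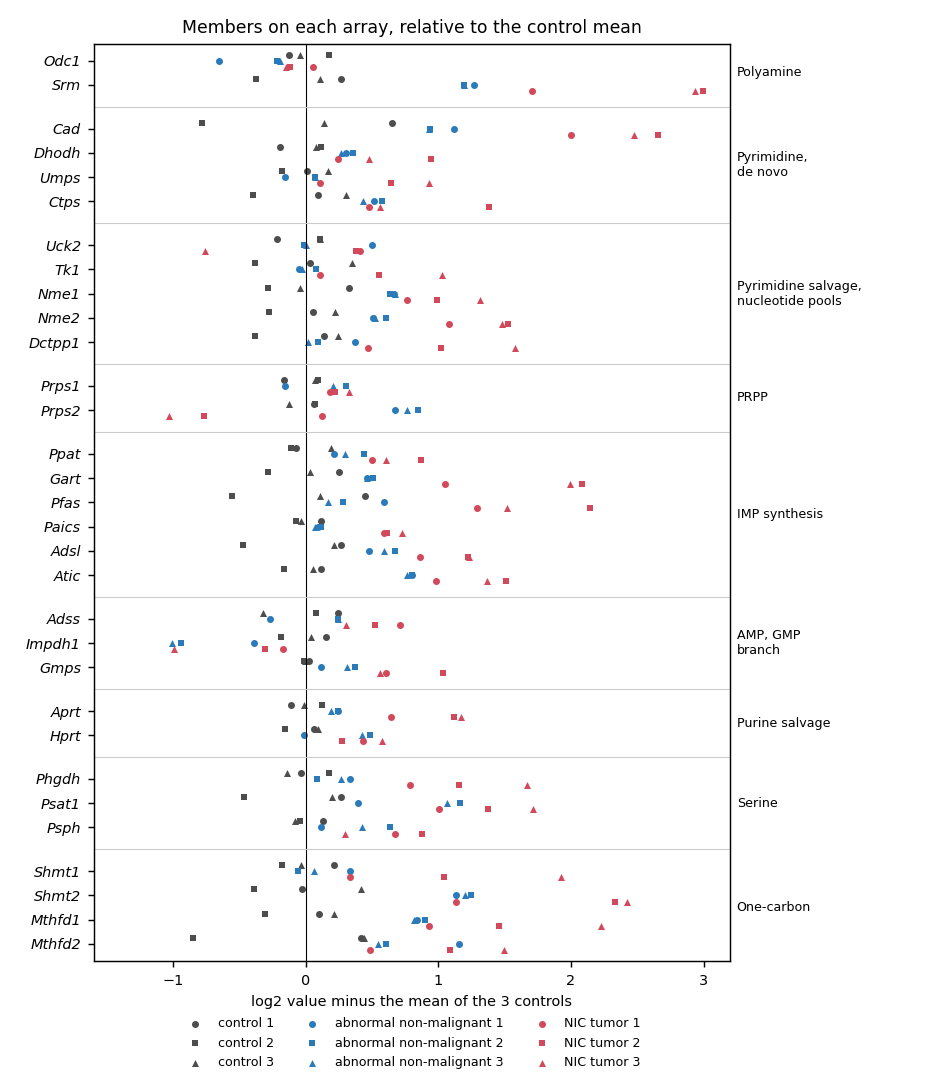
Log2 value of each of the 31 genes (rows, grouped by pathway) on each of the 9 arrays, minus the mean of the 3 controls; circles, squares and triangles are replicates 1, 2 and 3. Tumors (red) lie to the right of controls (grey) for most genes, with Srm and Cad farthest to the right and Prps2 to the left on tumors 2 and 3.

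**Figure D2:**
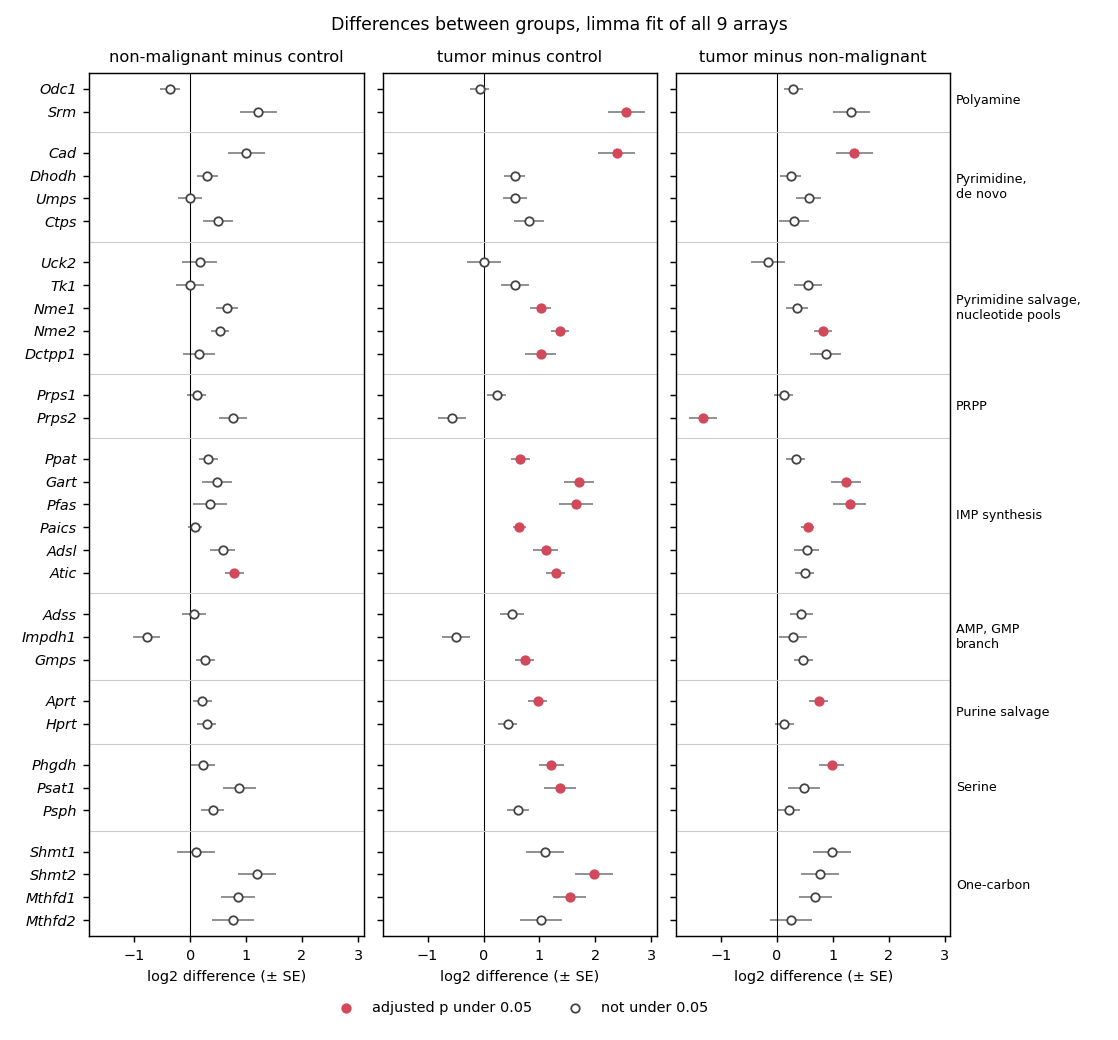
Log2 difference between group means with its standard error for each gene (limma, 3 arrays a group), in the 3 comparisons; filled points have an adjusted p under 0.05. In tumors against controls 17 points are filled, among them all 6 of IMP synthesis.

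Polyamine synthesis was measured through the genes of its first enzyme and of 1 later enzyme, and these genes did not move together. Srm, the spermidine synthase gene, had log2 values of 8.25, 7.61 and 8.09 in controls 1, 2 and 3, of 9.25, 9.18 and 9.18 in non-malignant samples and of 9.69, 10.98 and 10.92 in tumors. The 3 groups did not overlap, and tumor 1 lay nearer to the non-malignant arrays than to the other tumors. Srm rose by 2.55 ± 0.33 (SE) in tumors (adjusted p = 0.00163) and kept this call whichever array was left out, at 2.32 to 2.97. Its difference of 1.22 between non-malignant samples and controls did not pass (adjusted p = 0.0891; it passed without tumor 1), nor did that of 1.33 between tumors and non-malignant samples (adjusted p = 0.0536).

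Odc1 encodes ornithine decarboxylase, the first enzyme of the pathway. It read 10.44, 10.74 and 10.52 in controls, 9.91, 10.35 and 10.37 in non-malignant samples and 10.62, 10.45 and 10.42 in tumors. The tumors lay within the range of the other arrays (log2 difference from controls −0.07 ± 0.17 (SE), adjusted p = 0.81), and the non-malignant arrays lay below all controls (−0.36, adjusted p = 0.428). Its other 2 probe sets differed in sign between tumors and controls, at −0.58 and 0.37, the first with a value of 8.12 on tumor 3 against 9.24 to 10.12 elsewhere.

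Of pyrimidine synthesis the gene of the first reactions rose in tumors. Cad encodes the enzyme that carries out the first 3 reactions of the ring's assembly. It read 8.18, 6.75 and 7.67 in controls, 8.65, 8.47 and 8.46 in non-malignant samples and 9.53, 10.19 and 10.01 in tumors. The controls were spread over more than 1 log2 unit, with control 2 lowest, and the groups still did not overlap. Cad rose by 2.38 ± 0.33 (SE) in tumors against controls (adjusted p = 0.00247; 1.99 to 2.7 with 1 array left out, called each time) and was 1.38 higher than in non-malignant samples (adjusted p = 0.0493). The latter call ended without controls 1 or 3, any 1 non-malignant array, or tumors 2 or 3, at 1.25 to 1.57 over the 9 fits. Its other probe sets differed from controls by 2.55 and 1.59 in the tumors.

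The genes of the later enzymes of the pathway stood higher in tumors without passing. Dhodh, the mitochondrial dihydroorotate dehydrogenase gene, differed by 0.56 (adjusted p = 0.0776), Umps, which encodes the enzyme that makes UMP, by 0.56 (adjusted p = 0.118) and Ctps, a CTP synthase gene, by 0.81 (adjusted p = 0.0708). All tumor values lay above all control values for Dhodh and Ctps, while for Umps tumor 1 (9.06) lay below control 3 (9.12). The 3 genes passed without tumor 1. In non-malignant samples Umps was level with controls (8.95 in both).

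Among the genes of pyrimidine salvage and of nucleotide pools, 3 of 5 rose in tumors. Nme1 and Nme2 encode the subunits of nucleoside diphosphate kinase, which converts diphosphates to triphosphates. Nme1 read 10.69, 10.08 and 10.32 in controls, 11.03, 11 and 11.04 in non-malignant samples and 11.13, 11.35 and 11.68 in tumors. Nme2 read 11.23, 10.9 and 11.4 in controls, 11.68, 11.78 and 11.7 in non-malignant samples and 12.26, 12.7 and 12.66 in tumors. Both genes had groups apart in the same order. Nme1 rose by 1.02 ± 0.19 (SE) in tumors (adjusted p = 0.00936) and Nme2 by 1.36 ± 0.16 (adjusted p = 0.00131), and both calls held whichever array was left out. Nme2 was also higher in tumors than in non-malignant samples (0.82, adjusted p = 0.0318), a call that ended without control 1, any 1 non-malignant array, or tumors 2 or 3. The genes are close copies that lie side by side on the same chromosome, so their probe sets may share signal.

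Dctpp1, which encodes an enzyme that clears modified dCTP, read 9.17, 8.65 and 9.27 in controls, 9.4, 9.12 and 9.05 in non-malignant samples and 9.5, 10.05 and 10.61 in tumors. Its rise of 1.02 ± 0.28 (SE) was the weakest of the 17 calls (adjusted p = 0.0387): it ended when any array other than tumor 1 was left out, at 0.74 to 1.3. Tk1, the S phase thymidine kinase gene, had means of 9.92 ± 0.37, 9.92 ± 0.07 and 10.48 ± 0.46 (SD, n = 3 each) in controls, non-malignant samples and tumors, and did not pass in tumors (adjusted p = 0.159). It passed without tumor 1. Uck2, a uridine-cytidine kinase gene, differed by 0.01 in tumors (adjusted p = 0.984), tumor 3 (9.5) lying below all other arrays and tumors 1 and 2 (10.67 and 10.64) above all controls.

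PRPP synthetases make the sugar phosphate that all nucleotides are built on, and the genes of this family did not follow the others. Prps2 read 11.52, 11.53 and 11.33 in controls, 12.13, 12.31 and 12.22 in non-malignant samples and 11.58, 10.69 and 10.43 in tumors. The non-malignant arrays were the highest, and tumors 2 and 3 lay below every other array. Prps2 was lower in tumors than in non-malignant samples, with a log2 difference of −1.32 ± 0.25 (SE), or 0.401 of their level (adjusted p = 0.0274; −1.66 to −1.08 with 1 array left out). The call ended without controls 1 or 3, any 1 non-malignant array, or tumors 2 or 3, and with all probe sets averaged. Against controls neither the non-malignant samples (0.76, adjusted p = 0.188; passed without tumor 1) nor the tumors (−0.56, adjusted p = 0.16; passed without tumor 1) passed. The other 2 probe sets of Prps2 differed in the same directions in all 3 comparisons.

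Prps1, a paralog of Prps2 that also lies on the X chromosome, read 9.17, 9.43 and 9.41 in controls, 9.18, 9.64 and 9.54 in non-malignant samples and 9.52, 9.56 and 9.66 in tumors. Its differences from controls were 0.12 and 0.24 and did not pass (adjusted p = 0.927 and 0.358).

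All 6 genes of IMP synthesis rose in tumors. Ppat encodes the amidotransferase that commits PRPP to purine synthesis. It read 7.57, 7.53 and 7.83 in controls, 7.86, 8.08 and 7.94 in non-malignant samples and 8.14, 8.51 and 8.25 in tumors. The groups did not overlap, and the rise in tumors was small (0.66 ± 0.17 (SE), adjusted p = 0.0281). It was lost without controls 1 or 2, non-malignant arrays 2 or 3, or tumor 2, at 0.55 to 0.75 over the 9 fits. A second probe set gave 1.8, and another was under the 40th percentile on all arrays.

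Gart encodes a protein with 3 activities of the pathway, 1 of which uses a folate-bound formyl group. It read 9.03, 8.49 and 8.81 in controls, 9.24, 9.28 and 9.24 in non-malignant samples and 9.83, 10.86 and 10.77 in tumors. Pfas encodes another amidotransferase of the pathway. It read 7.59, 6.58 and 7.25 in controls, 7.73, 7.42 and 7.31 in non-malignant samples and 8.43, 9.28 and 8.66 in tumors. Both genes were lowest in control 2 and separated the tumors from all 6 other arrays. In tumors against controls Gart rose by 1.71 ± 0.27 (SE, adjusted p = 0.00454) and Pfas by 1.65 ± 0.3 (adjusted p = 0.00798), and both calls held whichever array was left out. Against non-malignant samples they were higher by 1.23 and 1.3 (adjusted p = 0.0405 and 0.0435). The Gart call ended there when any array other than tumor 1 was left out, and the Pfas call likewise, except that it also held without control 2.

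Paics encodes a later enzyme of the pathway. It read 11.05, 10.86 and 10.9 in controls, 11.03, 11.05 and 11.01 in non-malignant samples and 11.53, 11.55 and 11.66 in tumors. The tumors lay close together and above all other arrays. Paics rose by 0.64 ± 0.12 (SE) against controls (adjusted p = 0.00848) and by 0.55 against non-malignant samples (adjusted p = 0.0371). The latter call ended without controls 1 or 3, any 1 non-malignant array, or tumors 2 or 3. Its other probe sets gave 0.38 and −0.12 in tumors against controls, the latter with 8.08 on tumor 3 against 8.73 to 9.57 elsewhere, and with all probe sets averaged Paics was not called in either comparison. Ppat and Paics are neighbours on mouse chromosome 5: their annotated starts lie 276 bases apart on opposite strands, and their annotated spans overlap at these ends.

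Adsl, the adenylosuccinate lyase gene, read 8.62, 7.88 and 8.57 in controls, 8.83, 9.03 and 8.95 in non-malignant samples and 9.22, 9.58 and 9.59 in tumors, and rose by 1.11 ± 0.22 (SE) in tumors (adjusted p = 0.0119). Atic, the gene of the enzyme that closes the purine ring with a second formyl group, read 9.64, 9.36 and 9.58 in controls, 10.33, 10.33 and 10.29 in non-malignant samples and 10.51, 11.04 and 10.89 in tumors. Both had groups apart, controls lowest and tumors highest. Atic was the 1 gene of the 31 to rise in both comparisons with controls, by 0.79 ± 0.17 (SE) in non-malignant samples (adjusted p = 0.0325) and by 1.29 ± 0.17 in tumors (adjusted p = 0.00185). Leaving out a single control or non-malignant array ended its call in the non-malignant samples (0.71 to 0.85 over the 9 fits), and those of Adsl and Atic in tumors held whichever array was left out. The other probe set of Atic differed by 0.89 in non-malignant samples, where array 1 (6.66) lay below control 1 (7.16), and by 1.91 in tumors. With all probe sets averaged, or with quantile normalization, Atic was not called in non-malignant samples. With all probe sets averaged Nme1 was called there instead.

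The stretches upstream of Atic, Paics and Nme1 are shown because they were the measured genes whose annotated promoter window held the E-box CACGTG, the sequence that MYC and its partner MAX are known to bind. The sequences are RefSeq's (GRCm38.p6), printed 5′ to 3′ on the strand of the gene, with the E-box in capitals. For Atic the 250 bases before the start are given (chr1:71556906-71557155, plus strand), and for Paics (chr5:76951087-76951116, plus strand) and Nme1 (chr11:93968273-93968302, minus strand) 30 bases, since another annotated gene covers these windows.
Atic: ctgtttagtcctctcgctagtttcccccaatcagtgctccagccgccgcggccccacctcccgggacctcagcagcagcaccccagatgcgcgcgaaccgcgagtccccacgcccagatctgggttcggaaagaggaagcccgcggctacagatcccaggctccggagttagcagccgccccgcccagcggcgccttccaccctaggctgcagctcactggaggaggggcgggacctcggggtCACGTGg
Paics: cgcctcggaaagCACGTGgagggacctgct
Nme1: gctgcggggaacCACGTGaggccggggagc
The E-box began 7 bases before the annotated start of Atic, 203 before that of Paics and 18 before that of Nme1.

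Of the 31 measured genes 28 had a promoter window in the RefSeq table, and 3 of these 28 held CACGTG in the 250 bases before a start, compared with 6.86% of the 27025 genes in the table. Searched on both strands in the same windows, TTTNNCGC, part of the E2F site, was found in 4 genes (Nme1, Ppat, Prps1 and Psph; 4.94% of all genes), TGATGNAA, the core of the ATF4 element, in Prps1 (3.91%), and GTGGGAA, the site of the Notch partner RBPJ, in Shmt1 (6.18%). These letters in these windows describe the sequence only, and sites farther away were not searched.

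The branches from IMP to AMP and GMP were measured through 3 genes, of which 1 rose in tumors. Gmps, the GMP synthetase gene, read 10.02, 9.98 and 9.99 in controls, 10.11, 10.37 and 10.31 in non-malignant samples and 10.6, 11.03 and 10.56 in tumors. Its groups did not overlap, and it rose by 0.74 ± 0.17 (SE) in tumors (adjusted p = 0.018). The call ended without any 1 control or tumor 2, at 0.59 to 0.82, and with all probe sets averaged, where the log2 difference was 0.29. Adss, the gene of the first enzyme towards AMP, differed by 0.51 (adjusted p = 0.129) with all tumors above all controls.

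Impdh1 encodes an IMP dehydrogenase, the first enzyme towards GMP. It read 10.51, 10.17 and 10.4 in controls, 9.97, 9.42 and 9.35 in non-malignant samples and 10.19, 10.05 and 9.37 in tumors. The non-malignant arrays lay below all controls, and tumor 3 lay with them. Its log2 differences from controls of −0.78 in non-malignant samples (adjusted p = 0.175) and of −0.49 in tumors (adjusted p = 0.212) did not pass.

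Purine salvage was measured through both of its transferases. Aprt, the adenine phosphoribosyltransferase gene, read 9.65, 9.88 and 9.75 in controls, 10, 10 and 9.95 in non-malignant samples and 10.4, 10.88 and 10.93 in tumors. The groups did not overlap. Aprt rose by 0.97 ± 0.17 (SE) in tumors against controls (adjusted p = 0.00751; held whichever array was left out) and by 0.75 against non-malignant samples (adjusted p = 0.0435; lost when any array other than tumor 1 was left out, at 0.66 to 0.92). Its other probe set gave 1.38 and 0.88. Hprt, the hypoxanthine-guanine phosphoribosyltransferase gene, which is often taken as a reference gene, had means of 10.69 ± 0.14, 10.99 ± 0.27 and 11.12 ± 0.15 (SD, n = 3 each) in controls, non-malignant samples and tumors and did not pass (adjusted p = 0.118 in tumors).

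The genes of the first 2 steps of serine synthesis rose in tumors. Phgdh, the gene of phosphoglycerate dehydrogenase, which diverts a glycolysis intermediate to serine, read 10.19, 10.4 and 10.08 in controls, 10.56, 10.31 and 10.49 in non-malignant samples and 11.01, 11.38 and 11.89 in tumors. Psat1, which encodes the aminotransferase that follows, read 9.02, 8.29 and 8.95 in controls, 9.15, 9.92 and 9.82 in non-malignant samples and 9.76, 10.13 and 10.47 in tumors. Phgdh set the tumors apart from all other arrays, whereas Psat1 in non-malignant arrays 2 and 3 lay above tumor 1. The other probe set of Psat1 differed by 0.6 between tumors and controls, with tumor 3 (8.47) within the control range (7.98 to 8.73). Between tumors and non-malignant samples it differed by −0.25. In tumors against controls Phgdh rose by 1.21 ± 0.22 (SE, adjusted p = 0.00793; held whichever array was left out) and Psat1 by 1.37 ± 0.29 (adjusted p = 0.0139; lost without control 2, at 1.14). Phgdh was also higher than in non-malignant samples (0.98, adjusted p = 0.0419; lost when any array other than tumor 1 was left out, at 0.74 to 1.19).

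The probe sets of Phgdh disagreed on 1 array. One unused probe set read 11.62 on control 2 and 5.91 to 7.19 on the other 8, while the other 2 unused ones gave differences of 1.33 and 0.93 between tumors and controls. Averaged over its probe sets Phgdh was not called, at 0.58. Psph, which encodes the last enzyme of serine synthesis, differed by 0.62 in tumors (adjusted p = 0.0707), with all tumors above all controls, and passed without tumor 3.

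Genes of folate enzymes of both mitochondria and cytosol stood higher in tumors. Shmt2 encodes the mitochondrial serine hydroxymethyltransferase, which takes the one-carbon unit from serine. It read 8.59, 8.23 and 9.03 in controls, 9.75, 9.86 and 9.82 in non-malignant samples and 9.75, 10.95 and 11.04 in tumors. Tumor 1 was level with the non-malignant arrays, and all 6 lay above the controls. Shmt2 rose by 1.97 ± 0.34 (SE) in tumors (adjusted p = 0.00645; 1.73 to 2.38 with 1 array left out, called each time). In non-malignant samples it differed by 1.2 (adjusted p = 0.105), and passed without tumor 1. Its other 3 probe sets gave 2.52, 1.11 and 1.3 in tumors.

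Shmt1, the gene of the cytosolic enzyme, read 8.45, 8.06 and 8.2 in controls, 8.57, 8.18 and 8.3 in non-malignant samples and 8.57, 9.28 and 10.16 in tumors. The tumors were spread over more than 1.5 log2 units, and the difference of 1.1 ± 0.34 (SE) from controls did not pass (adjusted p = 0.0581; it passed without tumor 1). The other 3 probe sets gave larger differences of 2.57, 2.26 and 1.43, and averaged over its probe sets Shmt1 was called.

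Mthfd1, which encodes the cytosolic enzyme of 3 folate interconversions, read 8.6, 8.19 and 8.71 in controls, 9.34, 9.4 and 9.32 in non-malignant samples and 9.43, 9.96 and 10.73 in tumors. Mthfd2, the gene of its mitochondrial counterpart, read 8.8, 7.53 and 8.82 in controls, 9.54, 8.99 and 8.93 in non-malignant samples and 8.87, 9.47 and 9.88 in tumors. Mthfd1 had groups apart in the order controls, non-malignant samples, tumors, while in Mthfd2 the non-malignant samples and tumors overlapped and control 2 lay more than 1 log2 unit below the other controls. In tumors against controls Mthfd1 rose by 1.54 ± 0.3 (SE, adjusted p = 0.0103; held whichever array was left out), and Mthfd2 differed by 1.03 ± 0.38 (adjusted p = 0.0994; passed without tumor 1).

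**Figure D3:**
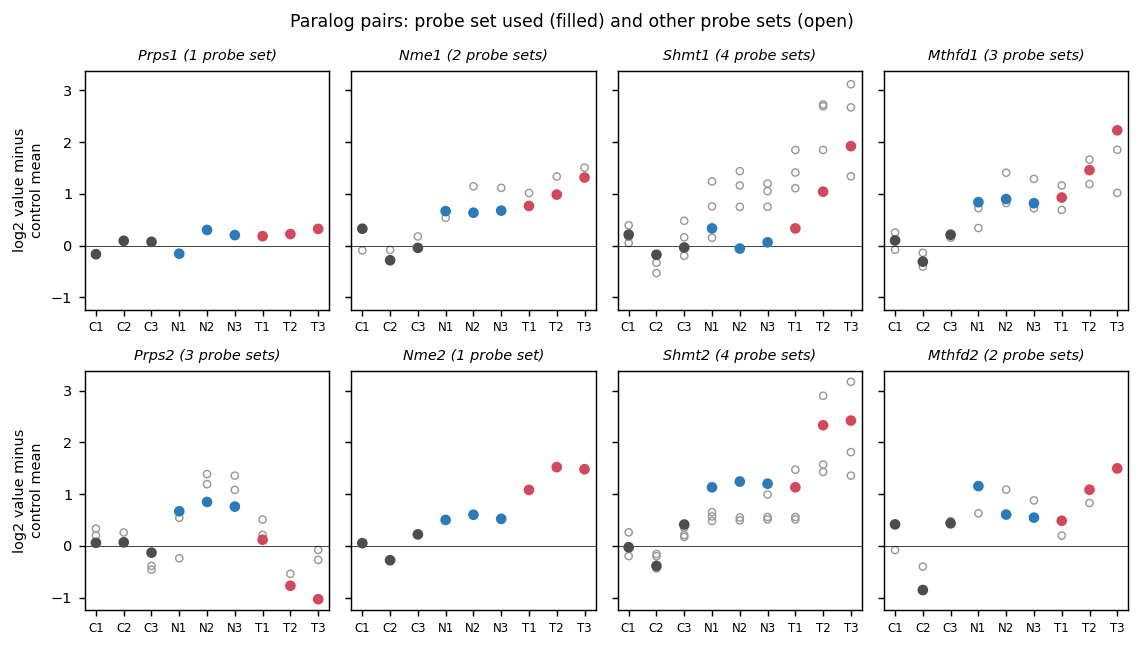
Log2 value minus the control mean for 4 pairs of related genes on controls (C1 to C3), non-malignant samples (N1 to N3) and tumors (T1 to T3); filled points are the probe set used and open points the gene's other probe sets. On the probe set used Prps2 is highest in the non-malignant samples and lowest on tumors 2 and 3, while its open points overlap between groups. Prps1 stays within 0.5 of the control mean.

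The 3 groups stood apart in the order controls, non-malignant samples, tumors in 11 of the 31 genes, a pattern that 2.73% of all genes tested showed. These were Srm, Cad, Nme1, Nme2, Ppat, Gart, Adsl, Atic, Gmps, Aprt and Mthfd1. Of the 17 genes that rose in tumors, 15 had tumor 1, the tumor array closest to the non-malignant ones, above all non-malignant arrays. Tumor 1 was among the arrays that gave these calls, and the share of all genes with this pattern was not counted, so this count is a description only. For 12 of the 17 other probe sets existed, and 20 of these 23 differed in the same direction as the one used.

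Other genes of the same pathways were taken from a list of 82, of which 68 were tested, and they moved in both directions. In tumors against controls 11 rose and 5 fell, where 8.48% and 7.19% of all genes did. The median log2 difference of the 68 was 0.29. The unadjusted p of the fit was under 0.05 for 36 of the 68 and for 4280 of the 13296 genes tested. Gcsh, which encodes a protein of the glycine cleavage system, another source of one-carbon units, rose by 1.77 (adjusted p = 0.00181), and Guk1, the guanylate kinase gene, by 1.42 (adjusted p = 0.00433). Ampd3, an AMP deaminase gene, differed by 1.55 (adjusted p = 0.0266), but all 3 controls (4.98, 4.49 and 4.68) and 1 tumor (5.28, beside 7.09 and 6.43) lay under the 40th percentile, so the size of this rise is not well measured. Mthfd1l, which encodes the mitochondrial formate-releasing enzyme, lay above that level on all arrays and rose by 1.51 (adjusted p = 0.0281). The call of Ampd3 ended without any 1 control or tumor 2 (1.14 to 2.05 over the 9 fits), and that of Mthfd1l without controls 2 or 3 or tumor 2 (1.05 to 1.81). The count of genes that rose was 5 without control 2 or tumor 2, 6 without control 3 and 21 without tumor 1. The count of genes that fell was 2 without any 1 control, 3 without non-malignant array 2 or 3 and 8 without tumor 1. Of the 16 genes called, 3 were dim in part and passed the filter through the groups where they were high: Ampd3, Ggh and Mthfs, the last a folate enzyme gene named after its values were seen.

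Among the genes called lower was Ggh, which encodes the enzyme that trims folates for export. It read 6.17, 6.33 and 6.11 in controls, 5.26, 5.67 and 5.67 in non-malignant samples and 4.45, 4.49 and 4.69 in tumors. The groups did not overlap and stood in the opposite order to the group means of 25 of the 31 genes. The share of all genes with that order of means was not counted. All 3 tumors lay under the 40th percentile, so the fitted difference of −1.66 from controls (adjusted p = 0.000336; −1.74 to −1.6 with 1 array left out, called each time) does not give an exact size. In non-malignant samples, which lay above that level, Ggh fell by 0.67 (adjusted p = 0.0411; lost without any 1 control or non-malignant array or tumor 2). Dck, the deoxycytidine kinase gene, fell by 1.36 in tumors (adjusted p = 0.0297), with tumor 3 lowest at 8.94, and lost the call without any 1 control, non-malignant arrays 2 or 3, or tumor 2.

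In non-malignant samples 2 of the 68 rose and 1, Ggh, fell, where 2.87% and 0.654% of all genes did, so the share that rose was near that of all genes. Without tumor 3 these counts were 5 and 2. Ampd1, which encodes the AMP deaminase of muscle, read 6.54, 7.39 and 6.45 in controls, 9.05, 9.25 and 9.2 in non-malignant samples and 7.6, 7.16 and 6.42 in tumors. It was high in the non-malignant samples alone, rose there by 2.37 (adjusted p = 0.00326; held whichever array was left out) and was lower in tumors than in them (−2.11, adjusted p = 0.0113; lost without non-malignant array 2 or 3). Nt5c, a nucleotidase gene, rose by 0.64 in non-malignant samples (adjusted p = 0.0401), a call lost without any 1 control or non-malignant array or tumor 2.

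Between tumors and non-malignant samples 4 of the 68 were higher and 3 lower, where 1.53% and 2.7% of all genes were. Without tumor 1 these counts were 12 and 9, and those higher were 0 without controls 1 or 3, any 1 non-malignant array or tumor 2, 1 without control 2 and 2 without tumor 3. Nme4, the mitochondrial relative of Nme1, was higher by 1.3 (adjusted p = 0.0475), Gcsh by 1.12 (adjusted p = 0.0345) and Mri1, which encodes an enzyme of methionine salvage from polyamine synthesis, by 0.96 (adjusted p = 0.0384). Ada, the adenosine deaminase gene, was lower (−1.01, adjusted p = 0.0195), as was Ggh (−1, adjusted p = 0.0104, with the tumors again under the 40th percentile), calls that ended without non-malignant array 2 or 3. With these arrays averaged 0 of the 7 calls were left.

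Cell cycle genes were counted beside the enzymes. Of 11 genes of the S phase list 1 rose in tumors against controls and 2 fell, where 8.48% and 7.19% of all genes did (median log2 difference −0.01). Mcm3 rose by 1.33, and Pcna and Ccne2 fell, the latter under the 40th percentile on 2 tumors. Of 9 G2/M genes 0 rose and 3, Mki67, Top2a and Ccnb2, fell (median −0.4). On single arrays the median over the 31 genes, relative to the control mean, was 0.1, −0.18 and 0.09 in controls, 0.37, 0.44 and 0.31 in non-malignant samples and 0.6, 1.04 and 1.17 in tumors. That of the G2/M list was 0.27, −0.51 and 0.27, then −0.28, −0.24 and −0.27, and then −0.43, −0.35 and −0.23. Control 2 was the lowest control in both. Rrm2, a ribonucleotide reductase gene of S phase that belongs to the 68 and was picked after its value was seen, fell by 0.96 in tumors (adjusted p = 0.00836). Of the 10 tested genes of the deoxynucleotide list it came from, 0 rose and 2 fell in tumors against controls. Of these 10 genes 6 had a positive difference (median 0.09).

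Myc read 7.43, 6.9 and 7.12 in controls, 8.34, 8.27 and 8.1 in non-malignant samples and 8.81, 9.72 and 9.93 in tumors. Its groups stood apart in the order controls, non-malignant samples, tumors, as did those of 11 of the 31 genes and of 2.73% of all genes tested. Tumor 1 was its lowest tumor, as in 23 of the 31 genes, a pattern whose share of all genes was not counted. Mycn read 8.2, 9.32 and 7.9 in controls, 13.27 to 13.73 in non-malignant samples and 12.68 to 13.76 in tumors, and the latter 2 groups overlapped. Against controls it was called higher in both, by 34.1-fold in non-malignant samples and 26.3-fold in tumors. Myc was called higher in tumors only, by 5.06-fold. The part of Myc or Mycn in the levels of the 31 genes was not tested. Erythroid and myeloid markers were highest on tumor 2, where their list medians lay 2.18 and 1.54 above the control mean. These medians were 0.51 and 0.51 on tumor 3 and 0.22 and 0.09 on tumor 1. On the non-malignant arrays they were 0.31 to 0.42 and 0.24 to 0.55. Without tumor 2, 14 of the 31 genes rose in tumors against controls. The part of erythroid and myeloid cells in the levels of the 31 genes was not tested.

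**Figure D4:**
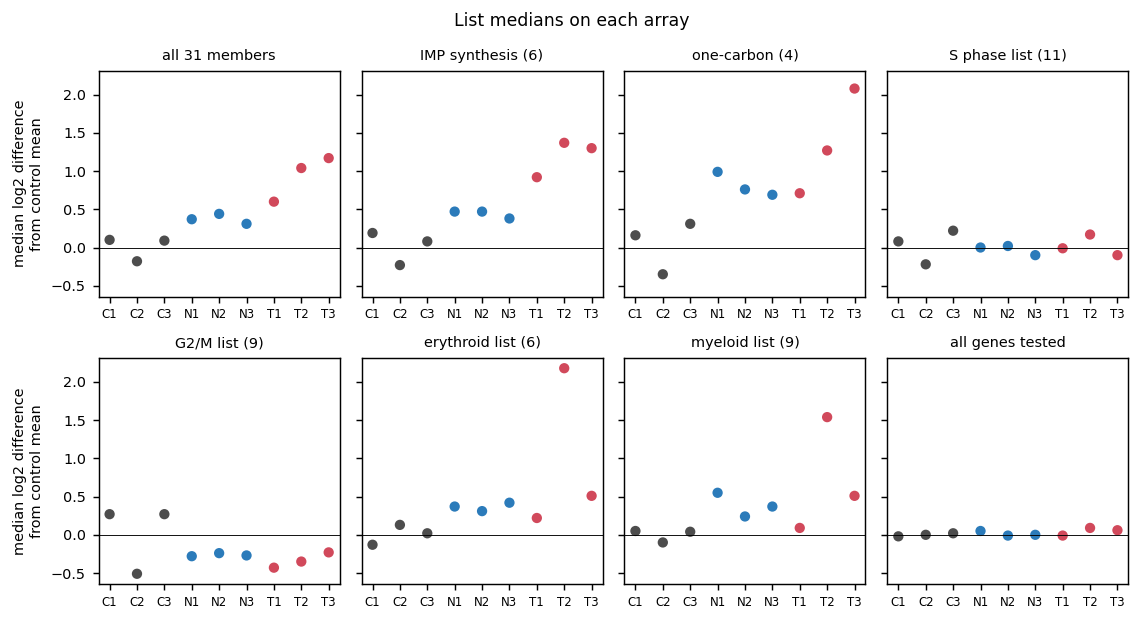
Median log2 difference from the control mean over the genes of each list, on controls (C1 to C3), non-malignant samples (N1 to N3) and tumors (T1 to T3). The 31 genes lie at 0.6 to 1.17 on the tumors, whereas the G2/M list lies at −0.43 to −0.23 and the erythroid and myeloid lists stand out on tumor 2.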

How the data were processed

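The values are the authors' deposited log2 values, 1 for each of 45101 probe sets on each of 9 arrays. Per the labels, a core facility ran the arrays by its standard procedure; background correction, normalization and summarization are not given in the sources used here. The log2 base was read from the values (2.68 to 14.57, array medians 5.67 to 5.77). The number of arrays limits the precision.

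Probe sets with 1 gene symbol (34945) were assigned to 18193 genes with the platform's annotation, its symbols updated through Entrez IDs (34741) or symbols (143) and otherwise kept (61), and control probe sets and those with several or no symbols were left out. Each gene was read from its probe set with the highest mean, and 13296 genes above the array's 40th percentile on at least 3 arrays were tested. A limma model (3.58.1, R 4.3.3; lmFit, eBayes with trend) took all 9 arrays with a mean for each group and no block, and gave the 3 two-sided contrasts; calls needed a Benjamini-Hochberg adjusted p under 0.05 over all genes tested. On simulated data the fit recovered 56.6% of 2-fold and 87.4% of 4-fold changes between tumors and controls with 35.8 false calls a draw beside 200 true changes, 55.2% and 91.4% between non-malignant samples and controls with 0.8, and 56% and 88.2% between tumors and non-malignant samples with 25. The false calls in the contrasts with tumors exceed what the threshold allows.

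The genes and lists were chosen with earlier results of these data known. All 31 genes are named, and of the other pathway genes the 6 called with the largest change per comparison; Rrm2 and Mthfs were named after their values were seen. The 22 alternatives covered normalization, filter, probe sets, variance model, array weights, samples in the fit, the replicate number as a block, non-malignant arrays 2 and 3 averaged, thresholds and leaving out each array; genes tested and probe sets stayed those of the 9 arrays unless they were the choice changed.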

Additional observations from a re-analysis of the deposited data

How the results depend on the processing

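For single genes, the 9 fits with 1 array left out gave the same call and direction in 803 results, and the other 13 alternatives in 1229; 137 and 120 lost a call, 20 and 46 gained one, and 12 and 5 changed sign, none of them called. These leave out Umps and Tk1 in non-malignant samples against controls, whose differences were 0 at 2 decimals and so had no sign to change: they ran from −0.1 to 0.08 and −0.19 to 0.18 with 1 array left out, and from −0.08 to 0.16 and −0.07 to 0.04 otherwise. The sign changes outside the leave-one-out fits were Adss in non-malignant samples against controls at −0.01 (arrays 2 and 3 averaged), Gmps there at −0.18 (all probe sets averaged), Shmt1 there at −0.01 (array weights), and Uck2 at 0.28 and Hprt at −0.12 in tumors against non-malignant samples (array weights). With 1 array left out, log2 differences in non-malignant samples against controls ran from −0.03 to 0.28 for Dctpp1 and from −0.09 to 0.24 for Adss. In tumors against controls they ran from −0.13 to 0.02 for Odc1 and from −0.19 to 0.39 for Uck2. In tumors against non-malignant samples they ran from −0.35 to 0.23 for Uck2, −0.01 to 0.22 for Prps1 and −0.03 to 0.22 for Hprt.

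Counts are given as the 31 genes higher and lower, the 68 other pathway genes higher and lower, and all genes called; the causes of the shifts were not tested. With 1 array left out, non-malignant samples against controls gave 0 to 4, 0 to 0, 1 to 5, 0 to 2, and 212 to 708. Tumors against controls gave 13 to 23, 0 to 1, 5 to 21, 2 to 8, and 941 to 4138, and tumors against non-malignant samples gave 0 to 15, 0 to 1, 0 to 12, 0 to 9, and 74 to 3417. Non-malignant samples against controls gave 12, 1, 16, 4 and 2421 with array weights, 5, 0, 11, 3 and 1119 with only these groups in the fit, 0, 0, 1, 0 and 218 with non-malignant arrays 2 and 3 averaged, 0, 0, 1, 0 and 233 at an adjusted p under 0.01, and 0, 0, 1, 0 and 368 at 2-fold or more. The 31 genes higher numbered 0 with quantile normalization. The other pathway genes higher numbered 1 with quantile normalization or no filter and 4 without a variance trend, and those lower 0 with no filter, the 60th percentile filter or no trend. Tumors against controls gave 24, 1, 30, 6 and 4885 with array weights, 14, 0, 5, 3 and 841 with only these groups, 11, 0, 3, 2 and 584 at an adjusted p under 0.01, and 13, 0, 10, 2 and 1190 at 2-fold or more, and 3 other pathway genes were lower with the 60th percentile filter or with arrays 2 and 3 averaged. Tumors against non-malignant samples gave 21, 1, 20, 12 and 5700 with array weights, 1, 0, 0, 2 and 110 with only these groups, 0, 0, 0, 0 and 73 with arrays 2 and 3 averaged, 0, 0, 0, 0 and 83 at an adjusted p under 0.01, and 3, 1, 2, 2 and 356 at 2-fold or more. The 31 genes higher numbered 2 with no filter and 3 with all probe sets averaged (0 lower), and the other pathway genes higher 2 with median scaling and 1 with no filter.

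The labels do not say whether arrays of the same number are paired. Their deviations from the group means correlated at −0.05 to 0.22, and those of arrays of different numbers at −0.26 to 0.21. Of the 9 arrays, 4 correlated best with an array of their own number. With 3 arrays a group these values cannot decide whether the samples are paired. With the replicate number as a block, non-malignant samples against controls gave 0, 0, 1, 0 and 399, tumors against controls 16, 0, 10, 6 and 1915, and tumors against non-malignant samples 0, 1, 0, 3 and 287.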
